A study of Mus musculus with 2 samples.

Results

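The genes described here encode the initiation and elongation factors of cytosolic protein synthesis, with the eIF4E-binding proteins and the eIF2alpha kinases. They were taken by name: every symbol beginning with Eif1 to Eif6, Eef1 or Eef2, without pseudogenes, which gave 65 of the 27998 genes listed. The cells were CD8+ T cells from spleens and lymph nodes of OT-I mice aged 8 to 12 weeks, whose transgenic T cell receptor recognises the ovalbumin peptide SIINFEKL. Both groups carried that receptor and were stimulated with that peptide over 48 h. Interleukin-2 was present at 100 U/ml during stimulation and afterwards in both. Expansion was in 11 mM glucose in both groups. For the last 20 h the control group had 11 mM glucose and the other group had 1 mM glucose, called transient glucose restriction (TGR) in the labels. The sample descriptions give 3 days of growth in place of 48 h, and the number of mice behind each group is not given in the sources used here. Each group was 1 single-cell library on the 10x Chromium platform (v2 chemistry), so no test between conditions could be made and no difference has a replicate check.

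Initiation factors bring the first methionyl-tRNA, the small ribosomal subunit and the mRNA together. eIF2 carries the tRNA, eIF3 holds the small subunit, the eIF4 proteins bind and unwind the capped end of the mRNA, and eIF5B joins the large subunit. Phosphorylation of the alpha subunit of eIF2 by stress kinases, and release of eIF4E-binding proteins from control by mTORC1, are known to hold initiation back when nutrients or energy are short. Activated T cells are known to raise protein synthesis steeply as they grow and divide.

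Values are unique molecular identifiers (UMIs, 1 per captured mRNA molecule), summed over the cells of a library and given as CPM, the usual depth-scaled count in which all genes of a library sum to the same total. There were 14730128 UMIs in 3127 control cells and 19696068 UMIs in 2546 TGR cells, with medians of 4030 and 6266 UMIs per cell. Scoring required a level of 10 CPM or more in 1 of the libraries at least. It was called higher or lower in TGR where the ratio was at least 1.5-fold and its exact 95% interval excluded 1. The intervals in parentheses are of this kind and cover counting error only.

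Some differences between the libraries as a whole run beside every result. Cytosolic ribosomal protein genes held 40.1% of control and 49.9% of TGR UMIs. Cell cycle phase, called from expression after thinning each cell to 1500 UMIs, was G1 in 5.80% of 3036 control and 45.6% of 2546 TGR cells, S in 31.1% and 32.7%, and G2/M in 63.1% and 21.7%. The part of phase, depth and ribosomal protein UMIs in the results was not tested, apart from the values within phases given below. Markers of CD8 T cells were present in both libraries: Cd3d had a UMI in 89.5% of control and 97.7% of TGR cells. Cd8a had one in 71.2% and 75.1%, and Cd3e in 41.7% and 50.3%. These shares are of cells before thinning and depend on depth. By CPM Cd3d was at 677 and 681, but Cd8a was lower in TGR, at 364 and 248. So were Cd8b1 (545 and 440), Cd3e (122 and 96.6) and Cd3g (581 and 373). The 7 rows of CD8 T cell markers summed to 3966 and 2863 CPM. Of the B cell markers, Cd79b was at 17.9 and 12.2 CPM, Cd79a at 1.09 and 0.406 CPM, and Ms4a1 at 3 and 1 UMI. The 6 rows of myeloid markers summed to 117 and 62.6 CPM, nearly all from Cst3, with Lyz2 at 1 and 0 UMI. The 2 NK markers summed to 0.136 and 0.0508 CPM, the 2 erythroid markers to 0.136 and 0 CPM, and Cd4 was at 1.29 and 1.32 CPM. The libraries shared 11 cell barcode sequences, 9 of them among the kept cells.

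The translation factors did not move as a block. Of the 65 genes, 60 had a UMI and 55 were scored. In TGR cells 3 of the 55 (5.45%) were called higher, against 9.33% of the 6667 scored genes, and 13 (23.6%) were called lower, against 21.8% of all scored genes. Both shares lie near those of all genes. The median log2 ratio of TGR over control was -0.18 over the 55 factors and -0.16 over all scored genes. All 65 together took 2.38% of control UMIs and 2.66% of TGR UMIs. By summed CPM the ratio of TGR over control was 1.35 for eIF1 and eIF1A and 1.33 for the eIF4E-binding genes. It was 1.37 for the separate genes Eif2a, Eif2d and Eif2c5, 1.22 for the elongation factors and 1.15 for eIF3. The ratio was 0.452 for the eIF5 and eIF6 genes, 0.768 for eIF4, and 0.776 both for eIF2B and for the genes linked to elongation factors. For eIF2 and the eIF2alpha kinases it was 1.07 and 0.967.

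CPM are shares of a total, so the larger ribosomal protein share in TGR leaves less for every other gene. With totals that leave out ribosomal protein and mitochondrially encoded genes, the median log2 ratio of all scored genes was higher by 0.26, and 11 factors were called higher (19.4% of all genes) and 8 lower (11.8% of all genes). Of the factors called, 18.8% were higher by the CPM of all UMIs and 57.9% by the other totals, while for all genes these shares were 29.9% and 62.2%. The 8 factors lower on both scales were Eif5a, Eif6, Eif1ax, Eif3b, Eif4e, Eif4a3, Eif2s1 and Eif4g1. Among the factors named or counted here, 13 with a small negative log2 ratio had a positive one on the second scale: Eef1d, Eef1g, Eef2kmt, Eif2b2, Eif2d, Eif2s3x, Eif3g, Eif3l, Eif4b, Eif4e3, Eif4ebp2, Eif4g3 and Eif5.

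**Figure D1:**
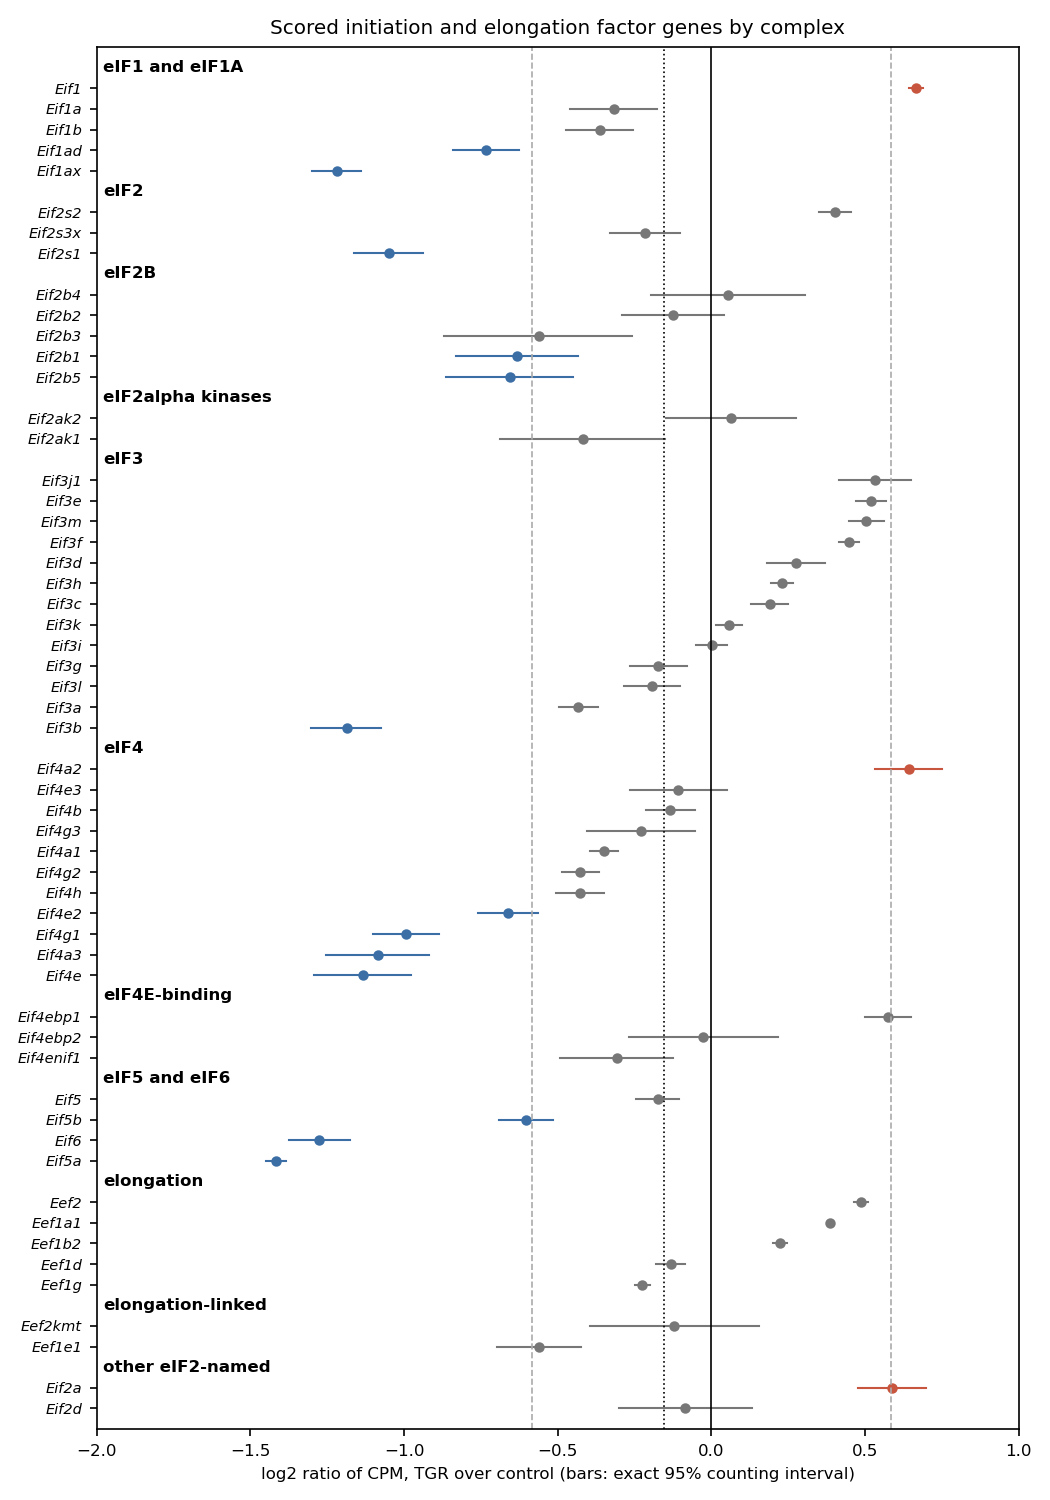
The log2 ratio of TGR over control for the 55 scored factors, by group, with exact intervals for counting error; red marks genes called higher, blue genes called lower, grey neither, the dotted line is the median of all scored genes and the dashed lines are 1.5-fold. Eif5a, at -1.42, is the lowest point and Eif1, at 0.67, the highest.

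In the eIF1 and eIF1A group of 5 genes, 1 abundant gene was higher and 2 were lower, against 9.33% and 21.8% of all scored genes. Eif1 encodes eIF1, which guards the choice of the start codon (ENSMUSG00000035530, GRCm38 chr11:100319885-100322096, plus strand). It had 1578 CPM in control and 2505 CPM in TGR cells, 1.59-fold higher (1.56 to 1.61). Eif1b, a close relative of it, had 91.0 and 70.7 CPM and was not called. Eif1b therefore made up 5.45% of the UMIs of the pair in control (5.17 to 5.74) and 2.75% in TGR (2.61 to 2.89).

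Eif1ax, on the X chromosome, encodes eIF1A, the partner of eIF1 in scanning. It had 235 CPM in control and 101 CPM in TGR cells, 2.33-fold lower (2.2 to 2.46). Eif1a, the related gene on chromosome 18, had 53.3 and 42.7 CPM and was not called. The pair was thus less unequal in TGR, with 81.5% of its UMIs on Eif1ax in control (80.3 to 82.6) and 70.2% in TGR (68.5 to 71.9). In cells called G1 these shares were 77.6% (69.9 to 84.2) and 67.4% (64.6 to 70.1), with intervals that just overlap. Eif1ad, whose product holds an eIF1A-like domain and acts in making the small subunit, had 107 and 64.5 CPM, 1.66-fold lower (1.54 to 1.79), and was not called by the totals without ribosomal protein genes. The 5 genes summed to 2064 CPM in control and 2784 CPM in TGR cells, a sum that is mostly Eif1.

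Within eIF2, the trimer that delivers the initiator tRNA, the subunits differed from each other. Eif2s1, which encodes the alpha subunit that the stress kinases phosphorylate (ENSMUSG00000021116, GRCm38 chr12:78861819-78887010, plus strand), had 112 CPM in control and 54.0 CPM in TGR cells, 2.07-fold lower (1.92 to 2.24). Eif2s2, for the beta subunit, had 321 and 424 CPM, a ratio of 1.32 (1.28 to 1.37) that was not called. Eif2s3x, for the gamma subunit, had 79.7 and 68.6 CPM and was not called, and its Y-linked counterpart Eif2s3y had no UMI. As a share of the trimer's UMIs the alpha subunit was 21.8% in control (20.9 to 22.8) and 9.88% in TGR (9.32 to 10.46), and the beta subunit 62.6% (61.5 to 63.7) and 77.6% (76.8 to 78.3). The sum of 512 and 547 CPM, a ratio of 1.07 (1.04 to 1.1), shows nothing of this, and without Eif2s2 the log2 ratio of the sum went from 0.09 to -0.64. In cells called S the log2 ratio of the whole sum was -0.033, with an interval (-0.108 to 0.042) that includes 0.

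The exchange factor eIF2B, which reloads eIF2 with GTP and is blocked by phosphorylated eIF2, had 2 of its 5 subunit genes called lower. Of all scored genes 21.8% were lower. Eif2b5, for the catalytic epsilon subunit, had 28.7 CPM in control and 18.2 CPM in TGR cells, 1.57-fold lower (1.37 to 1.82). Eif2b1, for the alpha subunit, had 30.6 and 19.8 CPM, 1.55-fold lower (1.35 to 1.78). Neither was called lower by the totals without ribosomal protein genes. The other subunit genes were at 37.3 and 34.2 CPM (Eif2b2), 12.8 and 8.68 CPM (Eif2b3) and 15.5 and 16.1 CPM (Eif2b4). Eif2b3 was scored through the control library alone.

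None of the 4 eIF2alpha kinase genes was called, and 2 of them were under the scoring limit. Eif2ak1, for the heme-regulated kinase HRI, had 16.0 CPM in control and 11.9 CPM in TGR cells, a ratio of 0.748 (0.621 to 0.9). The end of Eif2ak1 overlaps Aimp2 on the opposite strand, which had 527 and 304 UMIs against 235 and 235, so its count is uncertain. Eif2ak2, for the double-stranded RNA sensor PKR, had 21.7 and 22.6 CPM, a ratio of 1.05 (0.904 to 1.21). These ratios lie inside the 1.5-fold limit. Eif2ak3, for PERK, the kinase of the endoplasmic reticulum stress response, had 69 and 157 UMIs, or 4.68 and 7.97 CPM, with a ratio of 1.70 (1.27 to 2.29). With no filter on low values, 4 of 60 factors were called higher, Eif2ak3 among them, against 11.1% of all genes. Eif2ak4, for GCN2, the sensor of amino acid shortage, had 87 and 80 UMIs, or 5.91 and 4.06 CPM, with a ratio of 0.689 (0.501 to 0.943). PERK and GCN2 messages were thus each at under 10 CPM, and their intervals are wider than those of the abundant factors.

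The genes around eIF2 phosphorylation that are not factors themselves had 9 of 10 scored, with 2 higher (22.2%, against 9.33% of all genes) and 2 lower (22.2%, against 21.8%), and a median log2 ratio of -0.37. The lower share is that of all genes. Ppp1r15a, for GADD34, which leads the phosphatase to eIF2, had 5.23 CPM in control and 17.5 CPM in TGR cells, 3.34-fold higher (2.61 to 4.35), and was scored through the TGR library alone. Atf4, a transcription factor whose mRNA is translated better when eIF2 is phosphorylated, had 105 and 297 CPM, 2.83-fold higher (2.68 to 3.00). The genes called lower were Ppp1ca, a catalytic subunit of that phosphatase, at 606 and 329 CPM (1.84-fold lower), and Gcn1l1, for the GCN2 partner GCN1, at 36.5 and 21.6 CPM (1.69-fold lower). The phosphorylation of eIF2 itself was not measured.

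Eif2a and Eif2d encode separate tRNA-binding factors and, despite the names, no subunit of eIF2. Eif2a had 67.6 CPM in control and 102 CPM in TGR cells, 1.5-fold higher (1.39 to 1.62), which is just past the limit and was not called with all deposited barcodes. Eif2d had 21.9 and 20.6 CPM and was not called, and its end overlaps Rassf5 on the opposite strand, which had more UMIs (719 and 909 against 322 and 406).

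In eIF3, the largest initiation factor, Eif3b stood apart from the other 12 scored genes. The group had no gene called higher and 1 lower, against 9.33% and 21.8% of all scored genes. Its median log2 ratio was 0.19, with 9 of 13 genes above 0. Eif3b, for a core subunit (GRCm38 chr5:140419328-140443360, plus strand), had 116 CPM in control and 51.0 CPM in TGR cells, 2.28-fold lower (2.11 to 2.46). It made up 2.89% of all eIF3 UMIs in control (2.76 to 3.03) and 1.11% in TGR (1.04 to 1.18). In cells called G1 these shares were 1.48% (1.05 to 2.01) and 1.09% (0.989 to 1.21), with overlapping intervals. Eif3a, for the other large core subunit, had 269 and 199 CPM, a ratio of 0.741 (0.709 to 0.775), and was not called.

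The most counted eIF3 genes went the other way without reaching the limit. Eif3f had 741 and 1010.5 CPM, a ratio of 1.36 (1.33 to 1.40). Eif3h had 704 and 826 CPM, a ratio of 1.17 (1.14 to 1.2), and Eif3k had 554 and 577 CPM, a ratio of 1.04 (1.01 to 1.07). Highest by ratio were Eif3j1 at 1.45, Eif3e at 1.43 and Eif3m at 1.42, all under the limit. Eif3i had 384 CPM in both libraries. All eIF3 genes summed to 4013 CPM in control and 4601 CPM in TGR cells, a ratio of 1.15 (1.13 to 1.16).

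Of the 11 scored eIF4 genes, whose products bind the cap and unwind the mRNA, 4 were called lower and 1 higher. Of all scored genes 21.8% were lower and 9.33% higher. The median log2 ratio of the eIF4 genes was -0.43. Eif4e, for the cap-binding protein, had 59.9 CPM in control and 27.3 CPM in TGR cells, 2.19-fold lower (1.97 to 2.45). Eif4g1, for the main scaffold, had 120 and 60.4 CPM, 1.99-fold lower (1.85 to 2.15). Of the subunits of the cap-binding complex eIF4F, the cap-binding protein and the scaffold were thus both lower, while Eif4a1, for the main helicase, had 504 and 395 CPM, a ratio of 0.784 (0.760 to 0.810), and was not called. Eif4e2, for a cap-binding relative that acts mostly as a repressor, had 126 and 79.9 CPM, 1.58-fold lower (1.48 to 1.69), and was not called by the totals without ribosomal protein genes, after thinning, in cells with a Cd8a or Cd8b1 UMI and no marker of other types, or in cells of 3000 to 6000 UMIs. Eif4a3, whose product is the helicase of the exon junction complex rather than an initiation factor, had 51.3 and 24.2 CPM, 2.12-fold lower (1.89 to 2.38). In the last 500 bases of its longest coding transcript, where reads of this chemistry mostly fall, 48.9% of 31-base words occur in other genes too, so the Eif4a3 count is uncertain.

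The helicase gene Eif4a2 was the exception. It had 68.5 CPM in control and 107 CPM in TGR cells, 1.56-fold higher (1.45 to 1.68), and its share of the UMIs of Eif4a1 and Eif4a2 went from 12.0% (11.3 to 12.7) to 21.3% (20.5 to 22.1). None of the end words of Eif4a1 and Eif4a2 occur in other genes, but the end of Eif4a2 overlaps Rfc4 on the opposite strand, and whether counting used strand is not given in the sources used here. Rfc4 had 845 control and 611 TGR UMIs, against 1009 and 2105 for Eif4a2. In cells called G1 the share was 15.7% in control (12.0 to 19.9) and 21.2% in TGR (20.0 to 22.5).

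The other paralogs also differed in share. Eif4e took 26.4% of the UMIs of Eif4e, Eif4e2 and Eif4e3 in control (24.9 to 27.9) and 18.8% in TGR (17.4 to 20.3), while Eif4e3, at 40.7 and 37.7 CPM, took 17.9% (16.6 to 19.3) and 26.0% (24.4 to 27.7). In cells called G1 the intervals overlapped for Eif4e, at 22.5% (15.4 to 31.02) and 19.6% (17.4 to 22.0), and Eif4e3 took 14.2% (8.47 to 21.71) and 24.1% (21.7 to 26.7). The end of Eif4e3 overlaps Gm20696 on the same strand, so its count is uncertain. Eif4g1 took 26.2% of the UMIs of the scaffold genes in control (25.1 to 27.2) and 19.1% in TGR (18.1 to 20.1). Eif4g2, for a scaffold that lacks the eIF4E-binding region, took 66.4% (65.3 to 67.6) and 71.8% (70.6 to 72.9). In cells called G1 Eif4g1 took 28.4% (22.5 to 35.0) and 19.4% (17.8 to 21.1). For Eif4g2 the intervals overlapped there, at 63.0% (56.1 to 69.6) and 70.9% (69.0 to 72.8). Eif4g2 had 305 and 227 CPM and Eif4g3 had 33.9 and 28.9 CPM, and neither was called. Eif4e1b had no UMI in either library.

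**Figure D2:**
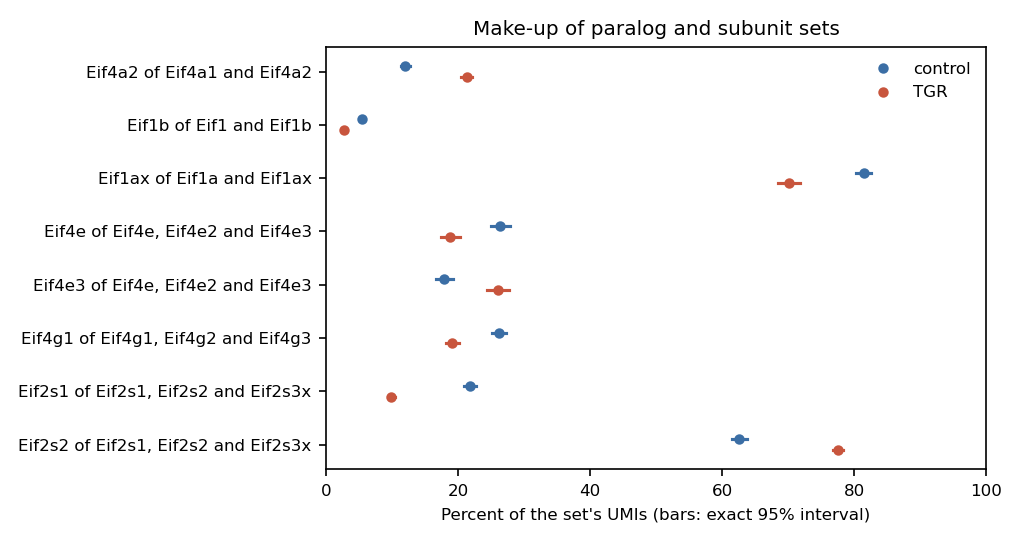
Share of UMIs, in percent, of 1 gene among its paralogs or subunits in each library, with exact binomial intervals for counting error. The shares of Eif4a2, Eif4e3 and Eif2s2 lie higher in TGR, and those of Eif2s1, Eif4e, Eif4g1, Eif1ax and Eif1b lower.

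The eIF4 genes summed to 1647 CPM in control and 1264 CPM in TGR cells, 1.30-fold lower (1.28 to 1.33). The direction was the same by every scaling tried, with a log2 ratio of -0.38 by CPM and -0.12 by the totals without ribosomal protein genes. The accessory genes Eif4b, at 157 and 143 CPM, and Eif4h, at 181 and 134 CPM, both for helicase cofactors, were not called.

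The repressor Eif4ebp1, for the eIF4E-binding protein that mTORC1 inactivates, was just inside the limit. It had 146 CPM in control and 217 CPM in TGR cells, a ratio of 1.49 (1.41 to 1.57). It was called higher by the totals without ribosomal protein genes, with TMM scaling (a trimmed mean of ratios) and with DESeq2 size factors. The same held without the 5% of cells with most UMIs and within G1 and G2/M cells. Eif4ebp2 had 17.1 and 16.8 CPM, a ratio of 0.982 (0.831 to 1.16), so that Eif4ebp1 was 89.5% of the pair's UMIs in control (88.2 to 90.7) and 92.8% in TGR (92.0 to 93.6). Eif4ebp3 had no UMI, but its transcript end is shared in full with another annotated gene, so this 0 is uncertain. Eif4enif1, for the eIF4E transporter, had 32.4 and 26.1 CPM and was not called, and its end overlaps Drg1 on the opposite strand, which had more UMIs (698 and 624 against 477 and 515). Protein levels and phosphorylation were not measured.

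The mTORC1 pathway genes had 20 of 28 scored, with 2 higher (10.0%, against 9.33% of all genes) and 4 lower (20.0%, against 21.8%), and a median log2 ratio of -0.24. Both shares are near those of all genes. By the totals without ribosomal protein genes 5 were higher and 0 lower, against 19.4% and 11.8% of all genes. Higher by CPM were Sesn2, for a restraint of mTORC1, at 6.38 and 11.8 CPM (1.85-fold, scored through the TGR library alone), and Ddit4, for another, at 33.9 and 51.9 CPM (1.53-fold). Of the genes related to Sesn2, Sesn1 had 12.3 and 11.0 CPM and was not called. Sesn3 had 42.3 and 62.4 CPM, a ratio of 1.48 (1.34 to 1.63). It was not called by CPM and was among those higher by the totals without ribosomal protein genes. Lower by CPM were Lamtor4 at 179 and 104 CPM, Lamtor5 at 258 and 170 CPM, Lamtor2 at 140 and 92.6 CPM, and Rraga at 21.5 and 14.1 CPM, all for parts of the lysosomal anchor of mTORC1. Other genes of that anchor were not called, with ratios of 0.889 for Lamtor1, 0.907 for Lamtor3 and 1.35 for Rragc. The factors that work beside eIF4F at the ends of the mRNA had 13 of 15 scored, with a median of -0.15 by CPM. By CPM 2 were higher (15.4%, against 9.33% of all genes) and 5 lower (38.5%, against 21.8%). By the totals without ribosomal protein genes 2 were higher and 2 lower (Dhx29 and Ncbp2), against 19.4% and 11.8% of all genes. Pdcd4, for an inhibitor of the eIF4A helicase, had 65.4 CPM in control and 188 CPM in TGR cells, 2.87-fold higher (2.67 to 3.08), and Mknk1, for a kinase of eIF4E, had 7.74 and 12.2 CPM (1.58-fold, scored through the TGR library alone). Lower were Dhx29, for a helicase of the small subunit (14.6 and 5.94 CPM, scored through the control library alone, 2.45-fold), the nuclear cap-binding genes Ncbp2 (2.27-fold) and Ncbp1 (1.68-fold), Larp4 (1.65-fold) and the helicase gene Ddx3x (1.56-fold). Pabpc1, for the poly(A)-binding protein, had 673 and 811 CPM, and Paip2 had 128 and 145 CPM. Neither of them was called.

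Among all scored factors Eif5a had the lowest ratio. It encodes eIF5A, which is modified with hypusine and helps ribosomes through difficult peptide bonds in elongation and termination (ENSMUSG00000078812, GRCm38 chr11:69916714-69921958, minus strand). It had 1504 CPM in control and 563 CPM in TGR cells, 2.67-fold lower (2.61 to 2.73). After each cell was thinned to 1500 UMIs, 85.5% of control and 54.6% of TGR cells had an Eif5a UMI, and before thinning 95.7% and 91.7% did. No cell type that lacks Eif5a was at hand, so the level of free RNA in these shares is not known. Eif5a2 had 53 and 54 UMIs, under the scoring limit.

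Eif6, which keeps the ribosomal subunits apart and acts in making the large subunit (ENSMUSG00000027613, GRCm38 chr2:155819832-155826925, minus strand), had 160 CPM in control and 65.9 CPM in TGR cells, 2.42-fold lower (2.26 to 2.59). Eif5b, for the GTPase that joins the subunits, had 152 and 99.9 CPM, 1.52-fold lower (1.43 to 1.62), and was not called by the totals without ribosomal protein genes, with TMM scaling (a trimmed mean of ratios), after thinning or in cells of 3000 to 6000 UMIs. Eif5, for the activating protein of eIF2, had 207 and 183 CPM and was not called. In this group 3 of 4 scored genes were lower, against 21.8% of all genes, with a median log2 ratio of -0.94. The group summed to 2025 CPM in control and 915 CPM in TGR cells, 2.21-fold lower (2.17 to 2.25), mostly through Eif5a.

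At the other end of translation, 5 of the 7 scored termination and recycling genes (71.4%) were lower and 0 higher, against 21.8% and 9.33% of all genes, with a median log2 ratio of -0.75. By the totals without ribosomal protein genes 2 of the 7, Gspt1 and Abce1, were lower, against 11.8% of all genes, and the median was -0.49. The 5 lower by CPM were Gspt1, for the release factor eRF3 (87.8 and 38.3 CPM, 2.29-fold), Abce1, for the recycling ATPase (46.2 and 24.4 CPM, 1.90-fold), Pelo, for a rescue factor (12.3 and 7.16 CPM, scored through the control library alone, 1.71-fold), Etf1, for eRF1 (96.3 and 57.1 CPM, 1.69-fold), and Mcts1 (77.3 and 46.1 CPM, 1.68-fold). Denr, whose product pairs with that of Mcts1, had 134 and 91.1 CPM and was not called.

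The elongation factors were the most abundant members and none of the 5 scored was called. Of all scored genes 9.33% were higher and 21.8% lower. Eef1a1 encodes eEF1A, which brings aminoacyl-tRNA to the ribosome. It had 7425 CPM in control and 9705 CPM in TGR cells, a ratio of 1.31 (1.30 to 1.32). Eef2, for the translocase eEF2 (GRCm38 chr10:81176631-81182498, plus strand), had 1629 and 2281 CPM, a ratio of 1.40 (1.38 to 1.42). The subunits of the exchange factor of eEF1A did not share a direction by CPM: Eef1b2 had 1692 and 1977 CPM (ratio 1.17), Eef1d 465 and 424 CPM (ratio 0.912) and Eef1g 1789 and 1531 CPM (ratio 0.856), the last 2 with a log2 ratio above 0 (0.13 and 0.04) by the totals without ribosomal protein genes. The group summed to 12999.8 CPM in control and 15918 CPM in TGR cells, a ratio of 1.22 (1.22 to 1.23). Without Eef1a1, of whose end words 48.7% occur in other genes, the sums were 5574 and 6213 CPM and the ratio 1.11 (1.1 to 1.12). Eef1a2, the muscle and neuron form, had no UMI.

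Genes that act on elongation factors or are named for them were not called either. Eef1e1, whose product belongs to the aminoacyl-tRNA synthetase complex, had 62.7 and 42.5 CPM, a ratio of 0.678 (0.617 to 0.746). Eef2kmt, for a methyltransferase of eEF2, had 13.6 and 12.5 CPM. Eef2k, for the kinase that halts eEF2, had 90 and 175 UMIs, or 6.11 and 8.89 CPM, under the scoring limit, with a ratio of 1.45 (1.12 to 1.90).

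**Figure D3:**
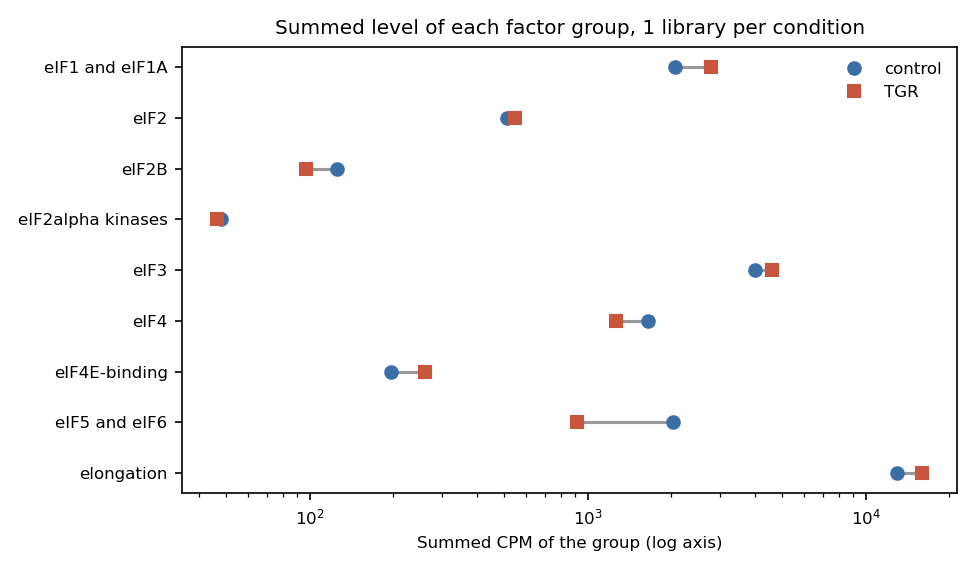
Summed CPM of each factor group in the control and TGR libraries, on a log axis, with 1 library per condition. The elongation factors sum highest in both libraries, and the eIF5 and eIF6 genes have the widest gap, 2025 against 915 CPM.

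Many of the abundant factors are known to have messages that begin with a terminal oligopyrimidine (TOP) tract, the run of C and T by which mTORC1 controls the translation of ribosomal proteins and elongation factors. The start regions are shown because the factors listed as TOP messages from background knowledge had higher ratios than the others. Each sequence, from RefSeq on GRCm38.p6, runs from 5 bases before the annotated start to 25 bases from it, on the gene's own strand. Capitals mark the longest run that begins with C, goes on with only C or T, and has at least 6 bases.
Eif3f (chr7:108934410-108934439, plus strand): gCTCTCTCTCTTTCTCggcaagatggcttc
Eef2 (chr10:81176626-81176655, plus strand): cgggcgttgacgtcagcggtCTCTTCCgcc
Eef1a1 (chr9:78481700-78481729, minus strand): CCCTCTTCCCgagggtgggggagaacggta
Eif4b (chr15:102073768-102073797, plus strand): tcggacgccgcgccaCCCCCTCgcgctgct
Eef1b2 (chr1:63176826-63176855, plus strand): gttccgccggaagtagccgaggccttgcgt
The runs in Eif3f and Eef1a1 span the annotated start, those in Eef2 and Eif4b lie after it, and Eef1b2 has no such run in this window. Whether a marked run is the TOP tract of the message was not tested.

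Start regions of 7 factors called lower are given for comparison, among them each one that holds a run.
Eif1ax (chrX:159372173-159372202, plus strand): agggcggggagaagccccgcccgctgccgc
Eif2s1 (chr12:78862067-78862096, plus strand): ggcgaagcgcacgctgaggagcttcggcgt
Eif3b (chr5:140419300-140419329, plus strand): gcggtgacttctgggagtcggaagcagggc
Eif5b (chr1:37998005-37998034, plus strand): ttcccacctggccggcggctctactggaga
Eif4g1 (chr16:20672722-20672751, plus strand): gctccgCCCTCTgcgccggtcacgtggggc
Eif2b5 (chr16:20498812-20498841, plus strand): tCTCTCCCTgcaactacaccttcgcgtttt
Eif1ad (chr19:5366808-5366837, plus strand): cgatggcttttgtttctccagcggCCCTTC
The run of Eif2b5 has 8 bases and spans the annotated start, as those of Eif3f and Eef1a1 do. The runs of Eif4g1 and Eif1ad have 6 bases and lie after it. Factors outside the TOP list that were not called are not shown, and some of them hold longer runs. Among these, Eif2s3x (ratio 0.861) has a run of 12 bases that spans the annotated start. Runs after the start have 11 bases in Eif3k (ratio 1.04), 9 in Eif3l (0.875) and 8 in Eif2b2 (0.917).

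Of 65 factors, 51 had a RefSeq start region, with 66 windows in all since some genes have several starts. A run was present in 18 of the 66 windows (27.3%), against 6614 of 32851 windows of all genes (20.1%). It was present in 4 of 5 windows of the known TOP factors, in 14 of 61 windows of the other factors (23.0%), and in 3 of 20 windows of factors called lower (15.0%), of which 6 are of Eif5a alone. Counted by gene, a run in any window was held by 3 of 12 factors called lower (25%), 13 of 46 factors outside the TOP list (28.3%) and 6178 of 27025 genes in all (22.9%). The letters TGATGNAA, a form of the element bound by ATF4 with its partners, searched on both strands from 250 bases before to 50 after the start, were in 2 of 66 windows of the factors (3.03%) and 1304 of 32851 windows of all genes (3.97%). Such matches describe the letters in these windows only.

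The 9 TOP factors (Eef1a1, Eef1b2, Eef1d, Eef1g, Eef2, Eif3e, Eif3f, Eif3h and Eif4b) had a median log2 ratio of 0.23 by CPM, with 6 above 0 and none called in either direction. The 46 other scored factors had a median of -0.27, with 3 higher and 13 lower, against 9.33% and 21.8% of all scored genes. Cytosolic ribosomal protein genes, whose messages carry the same tract, had a median of 0.28 over the 80 scored, with 13 higher and 0 lower. Within eIF3 the 3 TOP genes had a median of 0.45 and the 10 others 0.03. In sums, TOP factors had 14945 CPM in control and 18389.8 CPM in TGR cells, a ratio of 1.23 (1.22 to 1.24), and the other factors 8857 and 8229 CPM, a ratio of 0.929 (0.922 to 0.936). As the members were listed with earlier results known, the split is a description with no test. Ends of Eif3e (40.4%), Eif3h (32.3%), Eef1g (14.3%) and Eef1b2 (12.3%) share words with other genes, as do those of Eif3m (59.1%) outside the TOP list, and their counts are uncertain to that extent.

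Single cells showed the same order of the groups. The elongation factors took a median of 1.30% of a cell's UMIs in control (quartiles 1.14 and 1.51) and 1.59% in TGR (1.40 and 1.81). eIF3 took 0.399% (0.330 and 0.474) and 0.463% (0.394 and 0.538), and eIF4 took 0.158% (0.114 and 0.206) and 0.124% (0.0933 and 0.158). The quartile ranges of the libraries overlap for each of the 3 groups. Among cells called G1 the medians were closer, at 1.54% and 1.65% for elongation factors, 0.450% and 0.487% for eIF3, and 0.139% and 0.130% for eIF4. Cells of 1 library are no replicates of its condition.

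**Figure D4:**
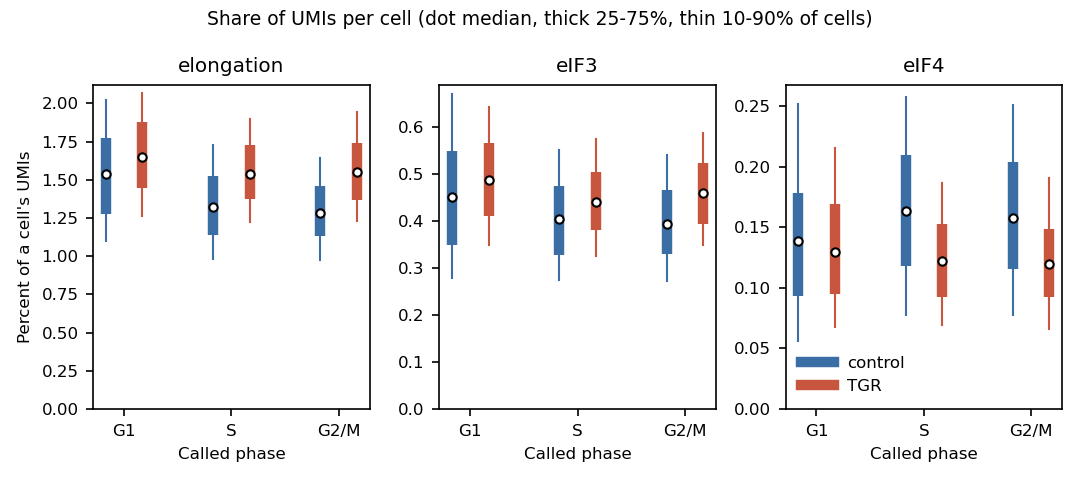
Percent of each cell's UMIs on the elongation, eIF3 and eIF4 genes, by library and called phase; dots are medians over cells, thick bars run between the quartiles and thin lines between the 10th and 90th percentiles. Control cells called G1 (176) lie nearer to TGR cells than control cells of the other phases for the elongation factors, with a median of 1.54%.

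Phase moved with the results, so each factor was also compared between cells called the same phase. Among G1 cells 2 of 55 scored factors were higher (4.51% of all genes) and 7 lower (15.2% of all genes). Among S cells 1 of 56 was higher (11.9% of all genes) and 15 lower (20.7% of all genes), and among G2/M cells 4 of 55 were higher (12.3% of all genes) and 15 lower (22.0% of all genes). The control G1 set held only 582821 UMIs in 176 cells, so its intervals are wide.

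Eif5a was lower in each phase, by amounts that differed. It had 1229 CPM in control and 682 CPM in TGR cells called G1, 1644 and 573 CPM in S, and 1463 and 382 CPM in G2/M, or log2 ratios of -0.85, -1.52 and -1.94. Eif6 had log2 ratios of -1.17, -1.32 and -1.48 in G1, S and G2/M, and Eif4a3 had -1.14, -1.03 and -1.15. These genes, with Eif1ax (-0.88, -1.24 and -1.30), Eif4g1 (-0.78, -0.97 and -1.07) and Eif4e2 (-0.59, -0.68 and -0.77), were called lower in all 3 phases. Whether the ratios differ between phases was not tested, there being 1 library a condition.

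Other factors were called lower in S and G2/M and not in G1. Eif3b had log2 ratios of -0.34, -1.15 and -1.44, with 39 and 396 UMIs in G1 and a G1 ratio of 0.791 (0.568 to 1.13). Eif2s1 had -0.48, -1.23 and -1.07, and Eif4e had -0.61, -1.19 and -1.30 with 27 control UMIs in G1. For the genes called higher, Eif1 had 0.58, 0.57 and 0.74, Eif4a2 had 0.38, 0.39 and 0.71, and Eif2a had 0.38, 0.42 and 0.59, each called in G2/M alone. Eif4ebp1 had 0.75, 0.44 and 0.59 and was called higher in G1 and G2/M. The other gene higher in G1 was Eif3j1, at 54.9 and 96.5 CPM, and the gene higher in S was Eef2k, which passed the scoring limit there.

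**Figure D5:**
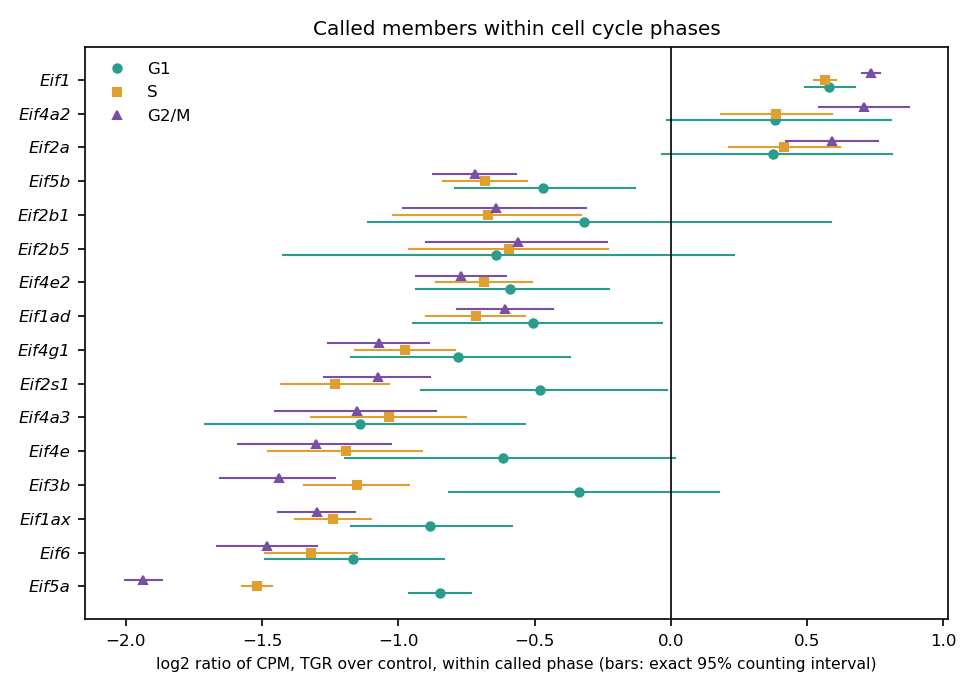
Log2 ratio of TGR over control for the factors called in all cells, computed within cells called G1, S and G2/M, with exact intervals for counting error. Every point keeps its side of 0, but the G1 intervals of Eif3b, Eif4e, Eif4a2, Eif2a, Eif2b1 and Eif2b5 include 0. Eif5a runs from -0.85 in G1 to -1.94 in G2/M.

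Of the 10 factors not scored, Eif2s3y, Eif4e1b, Eif4ebp3, Eef1a2 and Eif2c5 had no UMI in either library, which allows up to 0.204 CPM in control and 0.152 CPM in TGR cells by a limit of 3 UMIs. The other 5 were Eif2ak3, Eif2ak4, Eif5a2, Eef2k and Eif3j2, the last of which shares 93.4% of its end words with other genes.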

How the data were processed

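The deposited matrices hold whole-number UMI counts per gene and barcode, with no normalization. Per the submitters' processing notes, Cell Ranger 2.2, Seurat 3 and the mm10 build were used, and the role of each is not given in the sources used here. Sequencing was on a HiSeq 3000, per the labels. Barcodes with at least 500 genes and under 10% of UMIs on mt- genes were kept (3127 of 3336 control, 2546 of 2548 TGR). Doublets were not called and remain in the data.

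UMIs were summed per library. A prior of 0.5 UMI, in proportion to library size, was added before ratios were taken, with the exact Clopper-Pearson 95% interval of the split. Phases were called with scanpy on cells thinned to 1500 UMIs (seed 1), which left out 91 control and 0 TGR cells as too shallow. The computation was tested on simulated data. Alternatives were edgeR's TMM and DESeq2's size factors on the summed counts, used for scaling only, totals without ribosomal protein genes, other filters on genes and cells, and single phases. Gene positions came from GENCODE M21 (GRCm38) by Ensembl identifier.

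The members and gene lists were chosen with earlier results of these data known. Genes named were all called members, the 3 members of each group with the highest CPM, the kinases, eIF4E-binding proteins, eIF2B subunits and paralogs, and of each further list up to 4 called genes and the 2 with the highest CPM. Other genes were named after their values were seen. The lists were eIF2 phosphorylation control, mTORC1 pathway, partners at the mRNA ends, termination and recycling, hypusination and diphthamide, mitochondrial translation factors, ribosomal proteins and TOP messages. The level of 1 cell type marker is not reported here.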

Additional observations from a re-analysis of the deposited data

How the results depend on the processing

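The 3 higher and 13 lower calls became 11 and 8 with totals that leave out ribosomal protein and mt- genes (19.4% and 11.8% of all genes). In cells with a Cd8a or Cd8b1 UMI and no marker of other types, 5 were higher (9.75% of all genes). The higher count was 6 in cells of 3000 to 6000 UMIs (11.4% of all genes), 1 in S cells (11.9%) and 0 at a 2-fold limit (3.31%). The lower count was 7 in G1 cells (15.2% of all genes) and 7 at 2-fold (7.87%). The 16 called members kept their sign in all 12 alternatives that recompute ratios. Changes of scaling could not alter a sign. They moved the median log2 ratio of all genes by at most 0.26, and called members differed by at least 1.5-fold. The other alternatives use cells of the same 2 libraries, so the kept signs are no replicate check.

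The log2 ratio of the eIF2 sum (0.09) reversed to -0.64 without Eif2s2, a setting added after seeing the data. In S cells it was -0.033, with an interval (-0.108 to 0.042) that includes 0. It was 0.36 without ribosomal protein and mt- genes, 0.26 in G1 and 0.14 in G2/M. The eIF3 sum (0.20) was 0.24 with TMM, 0.22 with DESeq2 size factors, 0.46 without ribosomal protein and mt- genes, 0.10 in G1, 0.13 in S and 0.23 in the 3000 to 6000 UMI band. The eIF4 sum (-0.38) was -0.34 with TMM, -0.12 without ribosomal protein and mt- genes, -0.32 in CD8-marked cells, -0.35 without the 5% of cells with most UMIs, -0.33 after thinning, -0.19 in G1, -0.45 in S, -0.43 in G2/M and -0.28 in the band. The elongation sum (0.29) was 0.33 with TMM, 0.31 with DESeq2 size factors, 0.55 without ribosomal protein and mt- genes, 0.16 without Eef1a1 (added after seeing the data), 0.30 with all barcodes, 0.31 with at least 1000 genes and under 5% mt-, 0.28 in CD8-marked cells, 0.31 without the top 5%, 0.28 after thinning, 0.16 in G1, 0.23 in S, 0.27 in G2/M and 0.27 in the band. The cause of these shifts was not tested. Of the values of single members under alternatives, 438 lay inside the interval of the main result and 222 outside it. The counting error of the alternative itself was not taken into account. The sign changed in 44 of 468 values of members not called, in 18 of those members, and in 0 of 192 values of called ones. For called members the 1.5-fold limit itself makes a change less likely.

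No paired analysis was possible because each condition had 1 library, and replicate numbers were given in accession order. No replicate was left out, there being 1 per condition. Depth limits mainly the kinases PERK and GCN2 and the G1 control cells.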

Other observations

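The enzymes that modify factors after translation were also read. Of the 8 genes for hypusination of eIF5A and diphthamide of eEF2, 5 were scored, 1 was higher (20.0%, against 9.33% of all genes) and 2 were lower (40.0%, against 21.8%), with a median log2 ratio of -0.55. By the totals without ribosomal protein genes 1 was higher and 0 lower, against 19.4% and 11.8% of all genes. Dohh, for the hydroxylase that completes hypusine, had 60.2 CPM in control and 35.9 CPM in TGR cells, 1.67-fold lower, and Dph3 had 159 and 97.4 CPM, 1.64-fold lower. Dph6, for the last step of diphthamide synthesis, had 9.91 and 15.0 CPM, 1.51-fold higher, and was scored through the TGR library alone. Dhps, for the first enzyme of hypusination, had 32.9 and 22.5 CPM and was not called.

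The factors of mitochondrial translation, which serve the separate ribosomes of that organelle, had 5 of 9 genes scored, with a median of 0.03. By CPM 0 were higher and 2 lower (40.0%), against 9.33% and 21.8% of all genes. By the totals without ribosomal protein genes 2 were higher (Mrrf and Mtif3) and 0 lower, against 19.4% and 11.8% of all genes. Those lower by CPM were Tufm, at 15.1 and 8.94 CPM (1.69-fold, scored through the control library alone), and Tsfm, at 37.6 and 24.8 CPM (1.52-fold), for the mitochondrial counterparts of eEF1A and its exchange factor. Mtif2 had 20.5 and 21.0 CPM and was not called.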
